A study of Homo sapiens with 12 samples.

Results

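The 10 genes known as regulators of the choice between fetal and adult globin followed here were KLF1, BCL11A, ZBTB7A, MYB, SOX6, LIN28B, IGF2BP1, IGF2BP3, NR2C1 and NR2C2. They were chosen by name from the deposited count table, and all 10 were found among its 58735 genes. The counts came from RNA-seq of K562, a human leukemia line with an erythroid program and the BCR-ABL1 fusion kinase, which nilotinib inhibits. There were 12 libraries, 3 labelled biological replicates of each of 4 conditions, called mock DMSO and mock nilotinib where no hemin was given, and hemin DMSO and hemin nilotinib where it was. Cells had received 0.1 μM nilotinib or its solvent DMSO beforehand, and the hemin libraries were collected after 24 h with 50 μM hemin, an inducer of hemoglobin. The mock libraries had no hemin, and the study's methods place their collection at 0 h of hemin. If so, the presence of hemin and the added time in culture cannot be told apart. The mock nilotinib cells may then also have had nilotinib for less time than the hemin nilotinib cells, and hemin and the length of nilotinib exposure cannot be told apart where the nilotinib effects with and without hemin are set beside each other. All 4 conditions are the same leukemia line, which carries the fusion kinase throughout, so none of them is a normal erythroid culture.

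During development the β-like globin genes are used in turn, embryonic first, then fetal γ-globin and finally adult β-globin. BCL11A and ZBTB7A repress the γ-globin genes in adult red cell precursors, KLF1 activates the adult β-globin gene and the repressors, and MYB keeps progenitors proliferating and acts upstream of KLF1. LIN28B, IGF2BP1 and IGF2BP3 are RNA-binding proteins of the fetal state, and LIN28B blocks the maturation of let-7 microRNAs. NR2C1 and NR2C2, also called TR2 and TR4, are orphan nuclear receptors that bind direct repeats at the embryonic and fetal globin promoters. K562 itself makes mainly embryonic and fetal chains.

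Total counts per library ranged from 33457078 to 50506990. Levels are given as CPM, counts per 1000000 after TMM scaling, whose factors ran from 0.8445 to 1.111 and were lowest in hemin DMSO (0.8445 to 0.9429). Fold changes come from a model of all 12 libraries, and each adjusted p is from edgeR's quasi-likelihood test, adjusted by Benjamini-Hochberg over the 20821 genes with enough counts. Of the 10 regulators, 9 were among these genes, and BCL11A was not. The common biological coefficient of variation was 0.198. The spread between replicates is that of cultures of a single line. In such bulk libraries, fewer cells of a type and less RNA per cell cannot be told apart.

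Promoter sequences are shown for KLF1 and MYB, the regulators with the largest changes, from RefSeq on GRCh38.p14, each running from 250 bases before the start of transcription to 50 bases after it. The capitals mark matches, on either strand, to a GATA motif (AGATAA or AGATAG or TGATAA or TGATAG) or to the KLF1 motif CCNCNCCCN, where N is any base. The KLF1 promoter (chr19:12887152-12887451, minus strand) held 2 GATA matches, and the MYB promoter (chr6:135181058-135181357, plus strand) held 3 matches to the KLF1 motif.
KLF1: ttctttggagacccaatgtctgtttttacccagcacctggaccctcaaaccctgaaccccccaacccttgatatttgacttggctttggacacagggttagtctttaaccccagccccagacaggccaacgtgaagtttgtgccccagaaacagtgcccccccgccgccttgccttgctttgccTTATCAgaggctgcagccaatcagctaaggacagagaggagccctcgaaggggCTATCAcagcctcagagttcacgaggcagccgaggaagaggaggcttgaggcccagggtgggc
MYB: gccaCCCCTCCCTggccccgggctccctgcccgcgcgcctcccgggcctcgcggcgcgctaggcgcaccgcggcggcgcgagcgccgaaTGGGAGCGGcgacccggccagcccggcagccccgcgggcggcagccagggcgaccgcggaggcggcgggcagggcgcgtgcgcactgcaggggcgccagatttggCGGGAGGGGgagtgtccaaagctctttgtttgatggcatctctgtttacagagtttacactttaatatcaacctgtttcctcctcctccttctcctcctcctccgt
These are matches of letters, and binding was not measured. Of all 35116 promoters of this length in the table, 25% held a GATA match and 56.1% a match to the KLF1 motif. The table held 19 promoters of 9 of the regulators (IGF2BP1 was the other), of which 6 had a GATA match and 11 a match to the KLF1 motif. The STAT5 motif TTCNNNGAA was in 2 of the 19 and in 7.66% of all promoters.

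A second sequence feature set LIN28B, IGF2BP1 and IGF2BP3 beside each other. All 8 mature let-7 sequences of the 5p arm in RefSeq share the seed of let-7a, bases 2 to 8, shown here in capitals because the sites in the regulators pair with it.
hsa-let-7a-5p: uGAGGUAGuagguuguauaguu
The letters that pair with this seed, CTACCTC, occurred 4 times in the 3′ UTR of LIN28B, 4 times in that of IGF2BP1 and 1 time in that of IGF2BP3, in GENCODE 29's principal transcript with the longest 3′ UTR. One site of each is shown, with the 8 letters CTACCTCA in capitals, the first such site after the stop codon.
LIN28B: cccggttgcaaagtCTACCTCA
IGF2BP1: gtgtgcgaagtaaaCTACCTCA
IGF2BP3: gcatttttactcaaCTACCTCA
They lie at chr6:105078813-105078834 (plus strand), chr17:49051062-49051083 (plus strand) and chr7:23311795-23311816 (minus strand) of GRCh38. No such site was found in the same annotation of the other 7 regulators, whose 3′ UTRs ran from 341 bases (NR2C2) to 6360 bases (SOX6). Among 13922 tested protein-coding genes, 9.49% held the 7 letters at least once and 0.0718% at least 4 times. These shares were not matched for UTR length. The median UTR of those genes had 1005 bases, against 4549 in LIN28B, 6206 in IGF2BP1 and 2153 in IGF2BP3. The let-7 microRNAs themselves were not measured in these libraries.

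KLF1 (ENSG00000105610; chromosome 19 from 12884422 to 12887199), the zinc finger activator of adult β-globin and of many red cell genes, had the widest range of the 10. In mock DMSO it was at 223, 301 and 329.6 CPM in the 3 libraries. It was at 682, 747 and 769.7 CPM in mock nilotinib, and at 23.6, 22.2 and 26.2 CPM in hemin DMSO. In hemin nilotinib it was at 750.5, 609 and 530.4 CPM. The hemin DMSO libraries were all far below the others, the mock DMSO libraries were in between, and the 2 conditions with nilotinib overlapped. Nilotinib raised KLF1 by 4.71 (SE 0.19, adjusted p = 3.23e-11) on the log2 scale in the presence of hemin, 26.2-fold. Without hemin the rise was 1.37 (SE 0.17, adjusted p = 6.19e-06). Hemin without nilotinib lowered it 11.8-fold, with a log2 value of -3.57 (SE 0.18, adjusted p = 2.36e-09). With nilotinib already given, the log2 fold change for hemin was -0.22 (95% interval from -0.56 to 0.12, adjusted p = 0.468). The nilotinib effect with hemin exceeded that without it by 3.35 (SE 0.24, adjusted p = 5.55e-07).

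MYB (ENSG00000118513; chromosome 6 from 135181315 to 135219173), the progenitor transcription factor whose decline accompanies maturation, was high in a single condition. Its level was 302, 309 and 311 CPM in mock DMSO. In mock nilotinib it was 38.2, 36.9 and 33.9 CPM, in hemin DMSO 29.9, 57.2 and 48.9 CPM, and in hemin nilotinib 36.0, 41.9 and 35.2 CPM. Each mock DMSO library lay above all 9 others, and the other 3 conditions overlapped. With nilotinib and no hemin MYB was 8.46-fold lower, and fell by 3.08 in log2 units (SE 0.19, adjusted p = 4.25e-09). With hemin and no nilotinib it was 6.78-fold lower, and fell by 2.76 in log2 units (SE 0.19, adjusted p = 1.67e-08), and both agents together gave -3.03 (SE 0.19, adjusted p = 4.83e-09). Under hemin the log2 fold change for nilotinib was -0.27 (95% interval from -0.64 to 0.11, adjusted p = 0.196). This value depended on hemin DMSO replicate 1, the library with the lowest MYB of its condition, and without it the log2 fold change was -0.49 (adjusted p = 0.00453). The difference of the nilotinib effects was 2.81 (SE 0.25, adjusted p = 3.19e-06). Hemin alone thus lowered KLF1 and MYB together, whereas nilotinib alone raised the first and lowered the second.

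**Figure D1:**
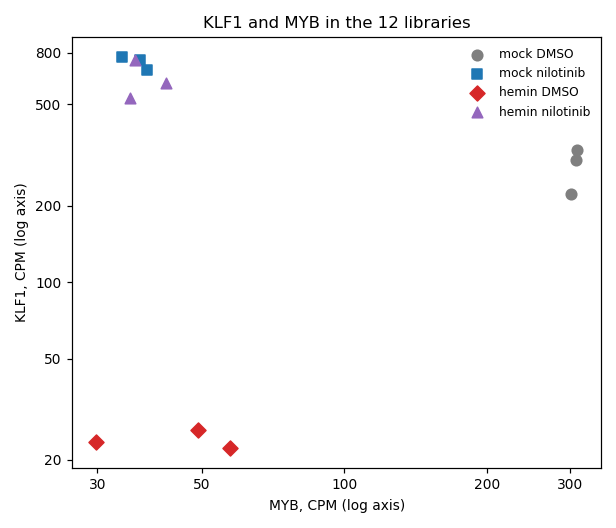
MYB (horizontal) against KLF1 (vertical) in CPM on log axes, 1 symbol per library. The 3 mock DMSO libraries sit apart at 302 to 311 CPM of MYB, the 3 hemin DMSO libraries at 22.2 to 26.2 CPM of KLF1, and the 6 nilotinib libraries share 1 region, with KLF1 from 530.4 to 769.7 CPM and MYB from 33.9 to 41.9 CPM.

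BCL11A (ENSG00000119866; chromosome 2 from 60450520 to 60555154), the main repressor of γ-globin in adult cells, was not detectable above the floor of 3 counts. It had 0, 1 and 2 reads in mock DMSO, 3, 0 and 0 in mock nilotinib, 1, 3 and 0 in hemin DMSO and 0 in each hemin nilotinib library. At these depths 3 counts correspond to 0.054 to 0.0957 CPM, so no fold is given. These limits cover counting error only. ZBTB7A (ENSG00000178951; chromosome 19 from 4044364 to 4066945), the other repressor, was by contrast well expressed. It was at 64.7, 80.7 and 81.6 CPM in mock DMSO, and at 112.7, 109.7 and 119.9 CPM in mock nilotinib. In hemin DMSO it was at 102.9, 95.2 and 131 CPM and in hemin nilotinib at 117.3, 111.8 and 128 CPM. Every treated library was above every mock DMSO library, and the 3 treated conditions overlapped. Nilotinib without hemin raised it by 0.59 (SE 0.14, adjusted p = 0.00253) and hemin without nilotinib by 0.54 (SE 0.14, adjusted p = 0.00387) in log2 units. Without mock DMSO replicate 1, its lowest library, the second was 0.37 (adjusted p = 0.0584). Under hemin, nilotinib gave 0.12 (95% interval from -0.18 to 0.41).

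SOX6 (ENSG00000110693; chromosome 11 from 15966449 to 16739591), a partner of BCL11A at the globin locus, was the lowest of the 9 tested regulators per kilobase of gene length in every condition. Its levels were 16.8, 15.4 and 14.2 CPM in mock DMSO, 19.5, 19.9 and 16.6 CPM in mock nilotinib, and, with hemin, 22.9, 24.1 and 22.2 CPM after DMSO and 20.7, 23.0 and 22.6 CPM after nilotinib. Both hemin conditions lay above both mock conditions in every library. Hemin without nilotinib raised SOX6 by 0.57 (SE 0.14, adjusted p = 0.00203) on the log2 scale. With nilotinib the hemin value was 0.24 (95% interval from -0.04 to 0.53, adjusted p = 0.317), and nilotinib under hemin gave -0.06 (95% interval from -0.35 to 0.23). In CPM, not divided by length, LIN28B was below SOX6 in mock nilotinib (means of 13 and 18.7) and in hemin nilotinib (17.7 and 22.1).

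**Figure D2:**
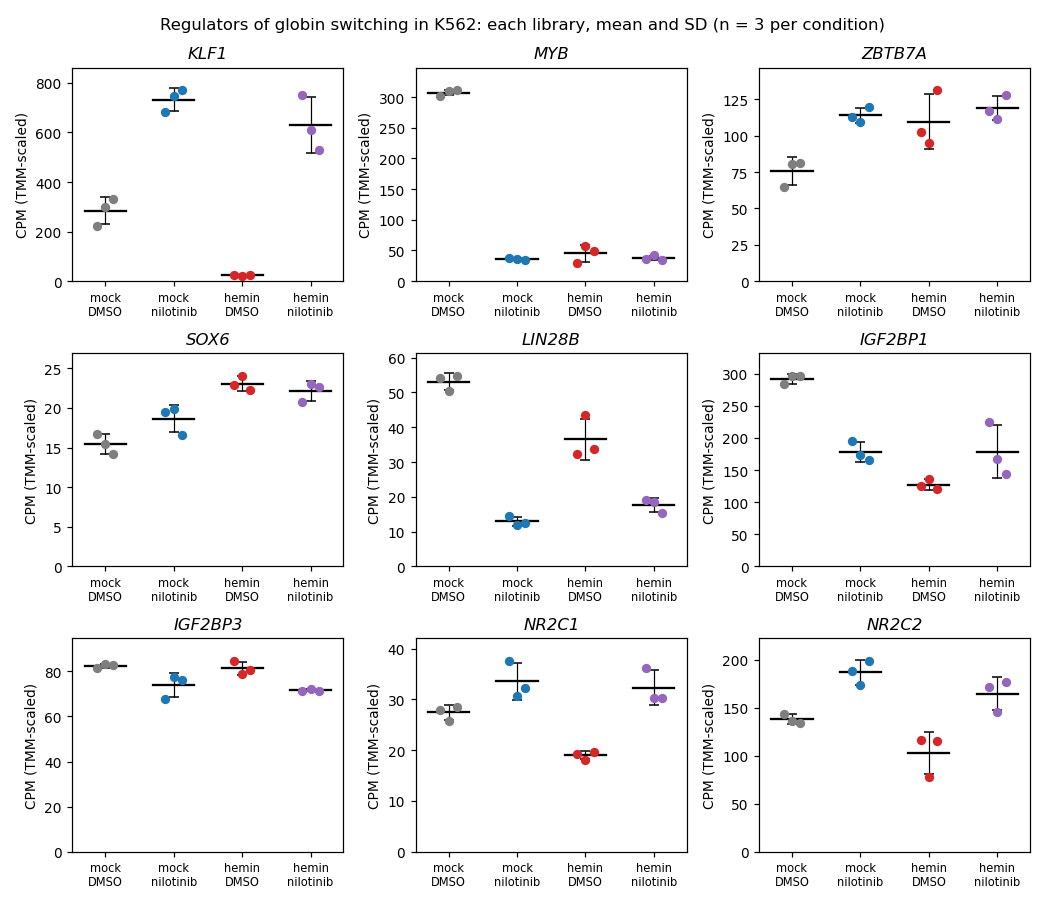
Level of each tested regulator in CPM (TMM-scaled, axes from 0) in the 12 libraries, grouped by condition, with the mean (line) and SD (bar) of 3 libraries. KLF1 is lowest in hemin DMSO, MYB is highest in mock DMSO, and IGF2BP3 stays between 67.7 and 84.6 CPM.

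LIN28B (ENSG00000187772; chromosome 6 from 104936616 to 105083332), the fetal RNA-binding protein that blocks let-7, followed nilotinib. It was at 54.2, 50.4 and 54.8 CPM in mock DMSO, and at 14.5, 12.02 and 12.4 CPM in mock nilotinib. In hemin DMSO it was at 32.4, 43.4 and 33.9 CPM and in hemin nilotinib at 19.1, 18.6 and 15.3 CPM. The libraries of the 4 conditions did not overlap, with mock nilotinib lowest, then hemin nilotinib, hemin DMSO and mock DMSO. Nilotinib lowered LIN28B with and without hemin, with log2 fold changes of -1.05 (SE 0.15, adjusted p = 1.41e-05) and -2.04 (SE 0.15, adjusted p = 3.36e-08). Hemin alone lowered it by less, with -0.54 (SE 0.15, adjusted p = 0.00528). In nilotinib-treated cells the hemin value was 0.45 (SE 0.15), with an unadjusted edgeR p of 0.00861 and an adjusted p of 0.09. The 2 nilotinib effects differed by 0.99 (SE 0.21, adjusted p = 0.00248).

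IGF2BP1 (ENSG00000159217; chromosome 17 from 48997412 to 49055650) encodes an mRNA-binding protein of fetal tissues, which LIN28B activity favours through let-7. Mock DMSO had 283, 297 and 296 CPM of it, mock nilotinib 194.5, 173.5 and 165.5 CPM, hemin DMSO 125.7, 136 and 120.2 CPM, and hemin nilotinib 224, 168 and 143 CPM. Mock DMSO was above all treated libraries and hemin DMSO below all others, while the nilotinib conditions overlapped. Each agent alone lowered it, nilotinib with a log2 value of -0.71 (SE 0.15, adjusted p = 0.00102) and hemin with -1.20 (SE 0.15, adjusted p = 7.15e-06). Under hemin the nilotinib effect had the other sign, 0.49 (SE 0.15, adjusted p = 0.00881), and the difference between the effects was 1.20 (SE 0.21, adjusted p = 6.15e-04).

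IGF2BP3 (ENSG00000136231; chromosome 7 from 23310209 to 23470467), its paralog, moved little. All 12 libraries fell between 67.7 and 84.6 CPM, the lowest in mock nilotinib and the highest in hemin DMSO. No comparison passed the adjusted threshold in edgeR, and the largest log2 fold change was -0.20 (95% interval from -0.43 to 0.02) for both agents against neither. DESeq2 gave nilotinib under hemin -0.23 with an adjusted p of 0.0419. MALSU1, on the opposite strand, covers 17.9% of the exonic bases of IGF2BP3, and the counting is not stated to use strand, so reads of these genes may be mixed.

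NR2C1 (ENSG00000120798; chromosome 12 from 95020229 to 95073703) and NR2C2 (ENSG00000177463; chromosome 3 from 14947584 to 15053600) encode the paired nuclear receptors that repress embryonic and fetal globin. NR2C1 was at 28.0, 25.7 and 28.5 CPM in mock DMSO, 37.6, 30.7 and 32.3 CPM in mock nilotinib, and, with hemin, 19.3, 18.1 and 19.6 CPM after DMSO and 36.2, 30.3 and 30.3 CPM after nilotinib. NR2C2 had 143.5, 135.7 and 134 CPM, 188, 173 and 198.5 CPM, 115.9, 77.8 and 115.6 CPM, and 172, 145 and 176.5 CPM in the same order. Both were lowest in hemin DMSO, where no library reached those of any other condition. Their centred log2 profiles were the closest of any 2 regulators, with a root-mean-square distance of 0.159 over 12 libraries.

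Under hemin, nilotinib raised NR2C1 by 0.76 (SE 0.13, adjusted p = 1.15e-04) and NR2C2 by 0.67 (SE 0.15, adjusted p = 9.19e-04) on the log2 scale. Hemin without nilotinib gave -0.53 (SE 0.13, adjusted p = 0.00324) for NR2C1. For NR2C2 it gave -0.42 (SE 0.15, adjusted p = 0.0261), and without hemin DMSO replicate 2 this was -0.25 (adjusted p = 0.106). Without hemin, nilotinib gave 0.29 (SE 0.13, adjusted p = 0.0887) for NR2C1, which passed with upper-quartile factors (0.40, adjusted p = 0.0161) and in the compared conditions alone (0.29, adjusted p = 0.03). NR2C2 had 0.44 (SE 0.15, adjusted p = 0.025), and leaving out any 1 of the 6 libraries compared gave 0.36 to 0.46 with an adjusted p of 0.0503 to 0.113. Genes on the opposite strand cover 11.4% of the exonic bases of NR2C2.

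**Figure D3:**
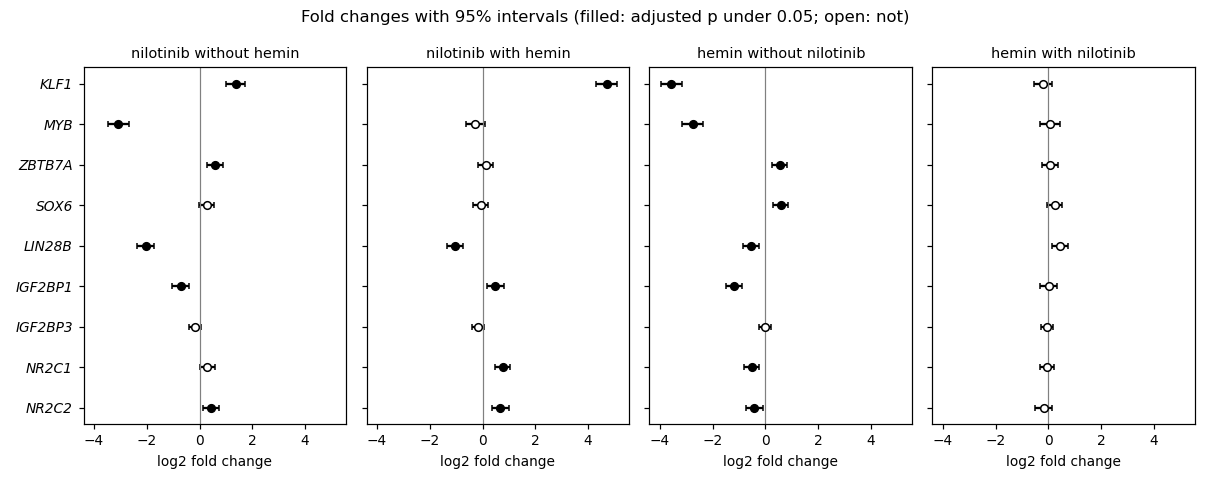
The log2 fold change of each tested regulator in 4 comparisons, with bars for the 95% interval, filled where the adjusted p was under 0.05. KLF1 spans from -3.57 under hemin alone to 4.71 for nilotinib with hemin, and in the panel of hemin with nilotinib every symbol is open.

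Counted over the 9 tested regulators, nilotinib under hemin raised 4 (KLF1, NR2C1, NR2C2 and IGF2BP1) and lowered 1 (LIN28B). Over all genes tested, 64.2% passed in that comparison, 32.4% higher and 31.8% lower and the 5 of 9 are not a larger share. Without hemin, nilotinib raised 3 (KLF1, ZBTB7A and NR2C2) and lowered 3 (MYB, LIN28B and IGF2BP1), against 42.5% of all genes, 20.7% higher and 21.8% lower. Among the genes called, the share higher was 48.6% here and 57% with upper-quartile scaling. Hemin without nilotinib raised 2 (SOX6 and ZBTB7A) and lowered 6, all the rest but IGF2BP3, against 53.6% of all genes, 25.7% higher and 27.8% lower, and the share higher among the genes called was 48% here and 55.6% with upper-quartile scaling. In the model of all libraries, hemin in nilotinib-treated cells moved the fewest genes, 1208 or 5.8% of those tested, 3.52% higher and 2.28% lower. This count was 213 without mock nilotinib replicate 2, 234 without mock nilotinib replicate 3, 286 without hemin nilotinib replicate 2, 2793 without hemin nilotinib replicate 1 and 183 in the compared conditions alone. In this comparison edgeR called 0 of the 9, with 1 (LIN28B) at an unadjusted p under 0.05, and DESeq2 also called 0.

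Both agents against neither raised 3 (KLF1, ZBTB7A and SOX6) and lowered 3 (MYB, LIN28B and IGF2BP1), where 46.6% of all genes passed, 24.2% higher and 22.4% lower. In that comparison the log2 fold change was 1.15 for KLF1, 0.65 for ZBTB7A, 0.51 for SOX6, -1.59 for LIN28B and -0.71 for IGF2BP1. Nilotinib alone against hemin alone gave 4 higher (KLF1, NR2C1, NR2C2 and IGF2BP1) and 1 lower (LIN28B), against 65.8% of all genes, 32.5% higher and 33.4% lower. KLF1 differed the most there, by 4.93 (SE 0.19, adjusted p = 2.01e-11), and MYB had -0.32 (adjusted p = 0.121), or -0.55 (adjusted p = 0.00213) without hemin DMSO replicate 1. The difference of the nilotinib effects passed for 4 (KLF1, MYB, LIN28B and IGF2BP1), each with the nilotinib effect higher under hemin, against 30.1% of all genes, 17.1% higher and 13% lower. With the replicate number as a block, 6 passed, adding NR2C1 (0.47, adjusted p = 0.0465) and ZBTB7A (-0.47, adjusted p = 0.0459), whose nilotinib effect was lower under hemin. ZBTB7A also passed with DESeq2 (-0.53, adjusted p = 0.0418), with upper-quartile factors (-0.60, adjusted p = 0.0333) and without hemin DMSO replicate 2 (-0.57, adjusted p = 0.0359), and NR2C1 without mock nilotinib replicate 1 (0.58, adjusted p = 0.0437) and without hemin nilotinib replicate 3 (0.56, adjusted p = 0.039). The share higher among all the genes called in it was 56.7% here and 46.3% with upper-quartile scaling.

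Levels were also compared per kilobase of gene length, which counts the exonic bases of all annotated transcripts. That length can exceed that of the transcripts present, so the order rests partly on annotation. On this scale KLF1 was the highest regulator in mock DMSO (177 CPM per kb), mock nilotinib (455) and hemin nilotinib (391). In hemin DMSO it was at 14.9 CPM per kb, below ZBTB7A at 19.2 and overlapping IGF2BP1 at 14. MYB ranked next to KLF1 in mock DMSO at 56.0 CPM per kb. It was below IGF2BP3 in mock nilotinib (6.61 against 8.68) and in hemin nilotinib (6.86 against 8.42). In hemin DMSO the MYB range of 5.44 to 10.4 overlapped those of IGF2BP3 (9.27 to 9.94), NR2C2 and LIN28B. ZBTB7A overlapped NR2C2 in mock DMSO (13.2 and 11.6 CPM per kb) and IGF2BP1 in both nilotinib conditions. In hemin DMSO IGF2BP3 also overlapped NR2C2, and all other neighbours in the order of the 4 conditions were apart in every library. NR2C1, at 2.91 to 5.13 CPM per kb, and SOX6, at 0.788 to 1.17, stayed at the lower end, and LIN28B fell from 8.86 in mock DMSO to 2.16 in mock nilotinib.

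**Figure D4:**
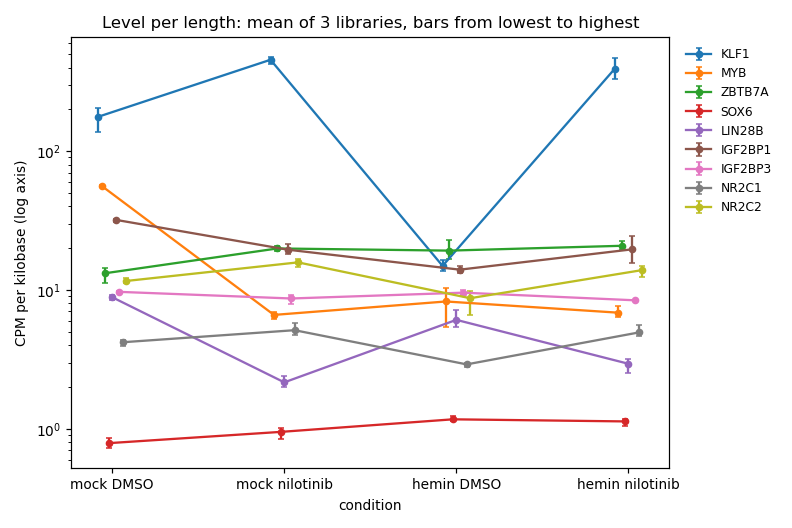
Mean level per kilobase of gene length (CPM per kb, log axis) of the 9 tested regulators in the 4 conditions, with bars from the lowest to the highest of 3 libraries and lines that join the means of a gene. KLF1 drops from 177 to 14.9 CPM per kb between mock DMSO and hemin DMSO and stands at 391 in hemin nilotinib, and MYB leaves its position of 56.0 in all 3 treated conditions.

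Other genes of these pathways were taken by list. The lists were chosen with earlier results of these data known, so their counts and medians are descriptions and not tests. Of 9 tested genes known to depend on KLF1, nilotinib under hemin raised 7 and lowered 1. There 32.4% of all genes were called higher and 31.8% lower. The median log2 fold change of the 9 was 3.25 against 0.02 over all genes. The largest were AQP1, a water channel, at 5.78, AHSP, the chaperone of free α-globin, at 5.56, EPB42, a membrane skeleton protein, at 4.59 and DMTN, an actin-bundling protein of the same skeleton, at 3.42. Without hemin, nilotinib raised 7 of the 9, where 20.7% of all genes were called higher, with a median of 2.88 against 0.004 over all genes. Under hemin alone 5 of the 9 were lower and 1 higher, where 27.8% of all genes were called lower and 25.7% higher. The median of the 9 was -0.46 against -0.05 over all genes, and AHSP had 0.05 (adjusted p = 0.912) where KLF1 had -3.57.

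Of 8 tested genes at the MYB locus or known as MYB targets, nilotinib without hemin lowered 7 and raised 1. There 21.8% of all genes were called lower and 20.7% higher, and the median of the 8 was -0.97 against 0.004 over all genes. Under hemin, nilotinib lowered 5 and raised 2, where 31.8% of all genes were called lower and 32.4% higher. MYC, the proliferation factor, was at 268 ± 30.6 CPM (SD, n = 3) in mock DMSO and 59.1 ± 4.21 CPM (SD, n = 3) in mock nilotinib, a log2 fold change of -2.18. KIT, the receptor of stem cell factor, had -2.94 without hemin and -2.81 with it. LMO2, an adaptor of the GATA1 and TAL1 complex, was the member that rose, by 1.81 without hemin and 3.41 with it. CCNB1, a mitotic cyclin, fell by 0.63 without hemin and rose by 0.68 under it. Hemin without nilotinib lowered 5 of the 8 and raised 0, where 53.6% of all genes passed, 27.8% lower and 25.7% higher. MYC, at -0.26 (adjusted p = 0.0972), was not past the threshold there although MYB had -2.76.

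Among the 9 tested paralogs of the regulators, nilotinib under hemin raised 2 and lowered 5, where 64.2% of all genes passed. Hemin alone raised 4 and lowered 3, where 53.6% of all genes passed. MYBL1, a paralog of MYB, rose under hemin alone from 2.72 ± 0.431 to 15.1 ± 4.36 CPM (SD, n = 3 each), or by 2.47 in log2 units (SE 0.38, adjusted p = 5.11e-05), and MYBL2, the paralog of dividing cells, had -0.32 (adjusted p = 0.118). Nilotinib raised MYBL2, by 0.92 with hemin and 0.90 without it, while MYB fell without hemin. LIN28A and SOX13 were low, with means of 12.8 and 17.8 counts per library. LIN28A had a mean of 0.187 CPM in mock DMSO and 0.915 in hemin DMSO, SOX13 0.132 and 1.47 CPM, and both were lower again with nilotinib (log2 fold changes of -2.75 and -2.66). SOX5, the close relative of SOX6, fell with nilotinib by 1.67 under hemin and 1.97 without it. IGF2BP2 rose by 0.43 with nilotinib under hemin, NR2F2 had -0.65, ZBTB7B -0.29 (adjusted p = 0.0661) and NR2F6 -0.09 (adjusted p = 0.604).

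All 22 corepressor genes, the subunits and enzymes through which BCL11A, ZBTB7A and the nuclear receptors silence promoters, were tested. Hemin without nilotinib lowered 11 of them and raised 2, where 53.6% of all genes passed, with a median log2 fold change of -0.36 against -0.05 over all genes. MBD3, a subunit of the NuRD complex, had -1.55 under hemin alone and 1.39 for nilotinib under hemin, and 0.02 (adjusted p = 0.946) for nilotinib without hemin. GATAD2A, another NuRD subunit, had the opposite signs, 0.72 and -1.15, and GATAD2B had 0.51 and -0.58. RBBP7, a histone-binding subunit, had -0.64 and 0.62. Nilotinib under hemin raised 7 of the 22 and lowered 4, a smaller share than the 64.2% of all genes.

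Of the 15 other regulators of fetal globin, all tested, nilotinib under hemin raised 10 and lowered 3. There 32.4% of all genes were called higher and 31.8% lower, and the median of the 15 was 0.58 against 0.02 over all genes. IKZF1, which encodes Ikaros, had a mean of 41.0 ± 11.5 CPM under hemin without nilotinib and 173 ± 45.5 CPM with both (SD, n = 3 each), and rose by 2.07 (adjusted p = 3.39e-07). BACH1, a repressor released by heme, rose by 1.46, and EIF2AK1, the heme-regulated kinase of translation, by 1.44. ATF4, a factor downstream of that kinase, fell by 1.08. In the let-7 list 9 genes were tested, and nilotinib under hemin raised 3 and lowered 5, where 64.2% of all genes passed. TUT7, which adds uridines to let-7 precursors, rose by 1.35 under hemin alone and fell by 0.98 with nilotinib under hemin. DIS3L2, the exonuclease of those precursors, had -0.96 and 0.71, ARID3B, a let-7 target, 1.003 and -1.01, and IGF1R 0.10 (adjusted p = 0.636) and 1.09.

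The globin genes that these regulators act on were tested as a list of 10, of which nilotinib raised 8 with and 8 without hemin. Over all genes, 32.4% and 20.7% were called higher there. The medians of the list were 2.18 and 2.56, against 0.02 and 0.004 over all genes. Hemin without nilotinib raised 7 of the 10 and lowered 0, where 25.7% of all genes were called higher and 27.8% lower. The median was then 0.93 against -0.05 over all genes, although KLF1 fell. For nilotinib under hemin the largest changes were in the α-like genes HBZ (4.94), HBM (4.91), HBA1 (4.73) and HBA2 (4.10). The β-like genes were named after their values were seen. HBG1, fetal γ-globin, was at 195 ± 89.8 CPM in mock DMSO and 1640 ± 615 CPM in mock nilotinib (SD, n = 3 each), and HBB, adult β-globin, was at 1.63 CPM or below in all libraries. Within that low range HBB rose under hemin alone by 2.61 in log2 units (SE 0.72, adjusted p = 0.00605), although its 3 libraries in mock DMSO (0.036 to 0.365 CPM) and in hemin DMSO (0.214 to 1.63 CPM) overlapped. HBE1, the embryonic β-like gene, was also low, with means of 1.2 CPM in mock DMSO, 1.91 in mock nilotinib, 1.61 in hemin DMSO and 2.11 in hemin nilotinib. Its log2 fold change for nilotinib was 0.39 under hemin (adjusted p = 0.358) and 0.66 without it (adjusted p = 0.165). HBD, another β-like gene, rose with nilotinib by 1.97 under hemin and 1.55 without it. HBG1 and HBG2, like HBA1 and HBA2, are near-identical copies whose reads may be split between them.

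Markers of cell types were summed beside the regulators. The summed level of 8 erythroid markers was 1200 to 1970 CPM in mock DMSO, 7800 to 8740 in mock nilotinib, 642 to 840 in hemin DMSO and 4370 to 8370 in hemin nilotinib. The sum is not weighted, and ALAS2 and TFRC were its largest terms in mock nilotinib, with means of 3000 and 2770 CPM. In hemin nilotinib TFRC ran from 429 to 2840 CPM. Nilotinib raised all 8 markers under hemin and 7 without it, and hemin alone lowered 6. Over all genes tested, nilotinib raised 32.4% under hemin and 20.7% without it, and hemin alone lowered 27.8%. ALAS2, HEMGN, EPOR and GYPB led for nilotinib under hemin, with log2 fold changes of 5.52, 5.41, 4.35 and 3.73. The 8 myeloid markers summed to 118 to 135 CPM in mock DMSO and 93.9 to 120 in hemin DMSO, against 18.5 to 21.4 and 10.5 to 14.7 in mock and hemin nilotinib. The myeloid sum thus fell with nilotinib, as did SPI1, LYZ and CSF3R (-2.74, -3.37 and -3.74 under hemin), whereas the granule genes MPO and ELANE had at most 9 and 13 counts in any library. The 8 megakaryocyte markers summed to 40.1 to 66.0 CPM in mock DMSO and 34.8 to 75.1 in hemin DMSO, against 26.7 to 37.2 in mock nilotinib and 15.4 to 25.1 in hemin nilotinib, with PF4, PPBP, GP9 and VWF at no more than 8 counts. In the same list ITGB3 and GP1BA rose by 2.12 and 2 under hemin with nilotinib and ITGA2B fell by 2.09. The erythroid sum was lowest in hemin DMSO, as KLF1 was, whereas the myeloid and megakaryocyte sums of mock DMSO and hemin DMSO overlapped. What part these shifts have in the levels of KLF1 and MYB was not tested.

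The genes whose centred log2 profiles over the 12 libraries lay nearest to each regulator were sought among 12494 genes with a mean of at least 100 counts. For KLF1 they were GFI1B at a distance of 0.225, ASTN1 at 0.324 and VENTX at 0.336. MYB had no gene as near, with FAM178B at 0.401, ATP2A3 at 0.402 and PTPN7 at 0.404. LIN28B had CEP55 at 0.131, PANK1 at 0.177 and FAM216A at 0.2. The nearest were WWC3 (0.0995), PIAS4 and KDM6A for ZBTB7A, and SMC4 (0.0949), ACYP1 and PTBP2 for SOX6. For IGF2BP1 they were SEH1L (0.0828), UCK2 and THOP1, and for IGF2BP3 MAP1S (0.0559), CASC4 and KDM5C. NR2C1 had GBA2 (0.0746), RBM19 and WDR11, and NR2C2 had FAM131A (0.0998), HERC1 and PTCH1. These distances describe likeness over libraries that share 4 conditions, and small ones are reached most easily by genes that vary little.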

How the data were processed

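RNA-seq of 12 K562 libraries was analysed from the raw counts per gene that the authors deposited, made by their sequencing service from 150-base paired-end reads. The aligner, the counting program and the use of strand are not given in the sources used here, and the submitters' processing notes name GRCh38.p12 and DESeq2. The deposited FPKM tables were not used. Groups and replicate numbers came from the sample labels. The 10 regulators and the gene lists were chosen with earlier results of these data known. Gene symbols were matched exactly, and IGF2 matched 2 identifiers, neither of them tested.

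The fit was edgeR's quasi-likelihood model (version 4.0.16, R 4.3.3) of all 12 libraries with TMM factors and a mean for each condition, after filterByExpr with a minimum count of 10 and a minimum total of 15. Tests were two-sided, and a gene was called at a Benjamini-Hochberg adjusted p under 0.05. There were 7 comparisons, namely nilotinib with and without hemin, hemin with and without nilotinib, both agents against neither, nilotinib alone against hemin alone, and the difference of the nilotinib effects. Comparisons share libraries and are not independent. CPM per kb used the gene length of the count table, which for the regulators equals the exonic bases of all annotated transcripts. The genes named are the 10 regulators, up to 4 genes of each list with the largest change for nilotinib under hemin among those called with a mean of at least 100 counts, every tested paralog, and the 3 genes nearest to each regulator. The procedure was run on simulated counts with a small, balanced set of known changes in hemin nilotinib. Far more genes were called in the data, so this run does not test the TMM scaling there.

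Alternatives were DESeq2 1.42.0, RLE and upper-quartile factors, no filter beyond 1 count, a stricter filter of 10 counts in all libraries, a 2-fold minimum, fits of the compared conditions alone, a block for the replicate number, and fits that left out 1 library each. Same-numbered libraries deviated together (every correlation over 0.1) between mock nilotinib and mock DMSO (0.154 to 0.198), hemin DMSO (0.127 to 0.199) and hemin nilotinib (0.424 to 0.451). In the other 3 pairs of conditions the lowest correlation was under 0.1, down to -0.103. Numbers that pair mock nilotinib with each other condition would pair those conditions too, so whether they mark pairs is not settled. The main model used no pairing, and the replicate block was an alternative. No pair of replicates agreed within counting noise (chi-square over degrees of freedom, 13.6 to 249). Positions, overlaps and UTRs came from GENCODE 29, and promoters and microRNAs from RefSeq. Figures were made with matplotlib 3.10.9.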

Additional observations from a re-analysis of the deposited data

Results flagged for a closer look

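The nilotinib effect differed between cells with and without hemin for 4 regulators, by the test of the difference itself (edgeR's quasi-likelihood test, adjusted by Benjamini-Hochberg), with log2 differences of 3.35 for KLF1, 2.81 for MYB, 0.99 for LIN28B and 1.20 for IGF2BP1. For KLF1 nilotinib raised the level in both settings, by more under hemin, and for LIN28B it lowered the level in both, by less under hemin. For MYB the log2 fold changes were -3.08 without hemin and -0.27 with it, and IGF2BP1 changed sign (-0.71 without hemin, 0.49 with it). If the mock libraries were collected at 0 h of hemin, hemin and a possibly longer exposure to nilotinib cannot be told apart in these differences.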

How the results depend on the processing

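Of the values of single regulators under the alternatives, 858 kept their direction and their side of the threshold, 27 fell short, 17 passed it anew and 25 changed sign. The 2-fold minimum used the values of the main model unchanged. Values that fell short there missed the fold minimum, with an adjusted p still under 0.05. Those that changed sign were small. For IGF2BP3 under hemin alone the log2 value was 0.023 with DESeq2 and with RLE factors, 0.101 with upper-quartile factors, 0.015 under the filter of 10 counts in all libraries, 0.019 for the compared conditions alone, and -0.097 to 0.006 with 1 library left out. Its difference of the nilotinib effects was 0.047 for genes with at least 1 count and -0.067 to 0.063 with 1 library left out. For IGF2BP1, hemin with nilotinib gave -0.005 with DESeq2, RLE factors, upper-quartile factors and the replicate block, and -0.195 to 0.134 with 1 library left out. In the same comparison, leaving out 1 library gave -0.15 to 0.032 for NR2C1, -0.054 to 0.092 for MYB and -0.001 to 0.079 for ZBTB7A, and ZBTB7A had -0.033 to 0.199 for nilotinib alone against hemin alone.

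With a 2-fold minimum, 2 regulators remained past the threshold for nilotinib with hemin, 3 for nilotinib without hemin, 3 for hemin without nilotinib, 3 for both agents against neither and 2 for nilotinib alone against hemin alone. The genes of the whole table past it were then 4872 for nilotinib without hemin, 6474 for hemin without nilotinib, 565 for hemin with nilotinib, 5518 for both agents against neither and 4073 for the difference of the nilotinib effects. For hemin with nilotinib, 1208 genes passed in the model of all libraries, 1974 with DESeq2, 1987 for genes with at least 1 count, 183 in the compared conditions alone, and 213 to 2793 with 1 library left out. The replicate block, a pairing by number, brought 2 differences of the nilotinib effects past the threshold, ZBTB7A at -0.47 (adjusted p = 0.0459) and NR2C1 at 0.47 (adjusted p = 0.0465) in edgeR's quasi-likelihood test, 6 regulators in place of 4. It changed no other call of a regulator. Upper-quartile scaling moved the median of all genes to 0.11 for nilotinib without hemin and 0.17 for both agents against neither. The causes were not tested.

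BCL11A, at or below 3 counts in every library, could not be tested at this depth. Levels of protein, let-7 and factor binding were not measured.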
